A study of Homo sapiens with 2 samples.

Results

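The genes described here are 6 long noncoding RNAs that are known to stay mainly in the nucleus: MALAT1, NEAT1, MEG3, MIAT, KCNQ1OT1 and SNHG14. They were chosen by name, and all 6 were found in the gene table shared by a library of whole cells and a library of nuclei, both made from human cerebral organoids of the H9 embryonic stem cell line by split-pool combinatorial barcoding. The cell library pooled control organoids (CO) of days 45, 55 and 70, organoids dissociated on day 45 and reaggregated (DISS, days 48, 55 and 70) and organoids constrained in 3% agarose from day 13 (CONS, day 55). The nuclei library is labelled as a control experiment and was made with a smaller kit. By the study's text its nuclei came from whole frozen organoids of day 45 and from organoids dissociated on that day, and its treatment label also names embedded material. In both files every barcode carried 1 shared sample name, so the condition, day and organoid of a barcode were not known. Each library is therefore 1 sample without a replicate, and the fraction, the ages, the treatments and the kit cannot be told apart between them. No test was made, and intervals cover counting error only.

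MALAT1 is an abundant RNA of nuclear speckles, the bodies that store splicing factors, and NEAT1 is the scaffold around which paraspeckles form. MIAT, also called Gomafu, marks a nuclear domain of neural cells and binds the splicing regulators SF1 and QKI. MEG3, KCNQ1OT1 and SNHG14 come from imprinted regions: MEG3 from the maternal copy beside DLK1, KCNQ1OT1 from the paternal copy inside KCNQ1, and SNHG14 from the paternal copy of the Prader-Willi region, where it hosts small nucleolar RNAs and runs across UBE3A in neurons.

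In the GENCODE annotation of GRCh38, NEAT1 (chr11:65422774-65445540, plus strand) and MALAT1 (chr11:65497640-65508073, plus strand) lie beside each other and are exonic over their whole length. Reads of a longer gene can raise its count, so levels are compared between members only per kb, and shares of barcodes with a count are not corrected for length. KCNQ1OT1 (chr11:2597308-2700003, minus strand) lies wholly within KCNQ1 on the opposite strand. MEG3 lies at chr14:100779410-100861031, SNHG14 at chr15:24978583-25420336 and MIAT at chr22:26646411-26676475, all on the plus strand. SNHG14 spans 442 kb, of which 27.8% is exonic, and overlaps UBE3A, on the opposite strand, over 86.6 kb. TALAM1, the antisense transcript of MALAT1, covers 77.8% of the MALAT1 gene.

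Sequences are given for 3 of the members: the 3' end elements of MALAT1 and NEAT1 and a stretch of repeats in MIAT. MALAT1 and the long isoform of NEAT1 end not in a poly(A) tail but in an A-rich tract that folds into a triple helix with a pair of U-rich motifs. The short isoform of NEAT1 is polyadenylated, and the counts are for the whole gene. Capitals mark the U-rich motifs and the A-rich tract on the transcribed strand at chr11:65506019-65506126 and chr11:65445443-65445540, both exonic, the first 1947 bases before the annotated end of MALAT1 and the second at the annotated end of NEAT1.
MALAT1: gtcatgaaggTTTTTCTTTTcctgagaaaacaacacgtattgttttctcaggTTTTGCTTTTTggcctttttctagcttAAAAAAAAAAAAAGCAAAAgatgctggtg
NEAT1: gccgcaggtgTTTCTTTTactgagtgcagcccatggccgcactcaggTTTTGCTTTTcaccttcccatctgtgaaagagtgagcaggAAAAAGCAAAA
The order TTTCTTTT, TTTTGCTTTT and AAAAAGCAAAA, with 10 to 80 and then 10 to 60 bases between them, was searched on the transcribed strand of 18756 annotated lncRNA genes and found in 2, MALAT1 and NEAT1, which is 0.000101% of 300-base windows. The pattern was written from these genes. MIAT is known for repeats of TACTAAC, the letters of the splicing branch point. It held 7 matches on the transcribed strand, against 15 in the far longer SNHG14, 3 in KCNQ1OT1, 1 each in NEAT1 and MEG3 and 0 in MALAT1. The densest stretch, exonic at chr22:26672023-26672235, held 4 of them, in capitals.
MIAT: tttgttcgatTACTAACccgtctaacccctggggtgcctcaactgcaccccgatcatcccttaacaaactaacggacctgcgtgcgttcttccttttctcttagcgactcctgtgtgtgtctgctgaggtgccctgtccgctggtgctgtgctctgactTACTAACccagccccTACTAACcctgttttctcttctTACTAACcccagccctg
TACTAAC occurred at least once in 0.966% of 300-base windows of the lncRNA genes, and 10 of 1983530 windows held 4 or more. These windows were fixed bins from the start of each gene, whereas the MIAT stretch was placed on its matches. The stretch need not fall within a single bin, so the counts are not like for like.

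Levels are given as counts per 10000 transcripts, summed over the barcodes that passed the limits (kept barcodes: over 500 genes, over 1000 transcripts, at most 20% mitochondrial). These were 20178 of 1303455 barcodes in cells (median 2615 transcripts, 2.45% mitochondrial) and 14228 of 197446 in nuclei (median 3890 transcripts, 0.0863% mitochondrial). Barcodes of 10 to 100 transcripts, 1022725 in cells and 167580 in nuclei, served as background. The spread is the SD over sub-libraries, 8 of cells and 2 of nuclei, which is technical.

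By counts, uncorrected for length, MALAT1 ranked first of all genes in both libraries. It made up 304 ± 6.999 per 10000 transcripts in cells (SD, n = 8 sub-libraries, range 294 to 314) and 382 ± 7.33 in nuclei (n = 2, 378 and 388), so the sub-libraries of the libraries did not overlap. SNHG14 stood at 8.81 ± 0.197 in cells and 11.3 ± 0.0351 in nuclei, at ranks 48 and 49 among all genes. NEAT1 stood at 3.44 ± 0.555 in cells (2.85 to 4.64) and 8.70 ± 0.621 in nuclei (8.21 and 9.09). KCNQ1OT1 stood at 2.48 ± 0.210 in cells (2.12 to 2.82) and 4.85 ± 0.0190 in nuclei. MIAT had similar levels in both, 2.62 ± 0.0904 in cells (2.51 to 2.77) and 2.96 ± 0.136 in nuclei (2.85 and 3.05). MEG3 was almost undetected, with 377 counts in cells (0.0240 per 10000) and 44 in nuclei (0.00610 per 10000).

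Per kb of exon, MALAT1 remained far above the rest, at 29.1 per 10000 transcripts per kb in cells and 36.6 in nuclei. MIAT (0.165 and 0.186 per kb in cells and nuclei) and NEAT1 (0.151 and 0.382) came next and changed places between the libraries. SNHG14, with the most exonic sequence of the 6, stood at 0.0719 and 0.0922 per kb. KCNQ1OT1 stood at 0.0268 and 0.0524 per kb and MEG3 at 0.00103 and 0.000263. This order depends on the length used, and how introns were counted is not known. Per kb of the whole gene, NEAT1 (0.151 and 0.382) was above MIAT (0.0872 and 0.0985) in both libraries, and KCNQ1OT1 (0.0241 and 0.0472) was above SNHG14 (0.0199 and 0.0256).

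After each barcode was thinned to 1000 transcripts, MALAT1 was detected in 99.96% of kept cells and 99.97% of kept nuclei. SNHG14 was found in 52.0% of cells (95% exact binomial interval 51.3 to 52.7) and 50.4% of nuclei (49.6 to 51.2). MIAT was found in 21.8% of cells and 24.1% of nuclei, KCNQ1OT1 in 20.6% and 29.1%, and NEAT1 in 16.2% and 18.3%. NEAT1 thus had a higher mean in nuclei with a nearly equal share of barcodes. MEG3 was found in 0.362% of cells and 0.0633% of nuclei. Without thinning the shares were 35.5% and 33.7% for NEAT1, 48.8% and 56.0% for MIAT, 45.1% and 52.9% for KCNQ1OT1, and 79.2% and 78.7% for SNHG14.

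**Figure D1:**
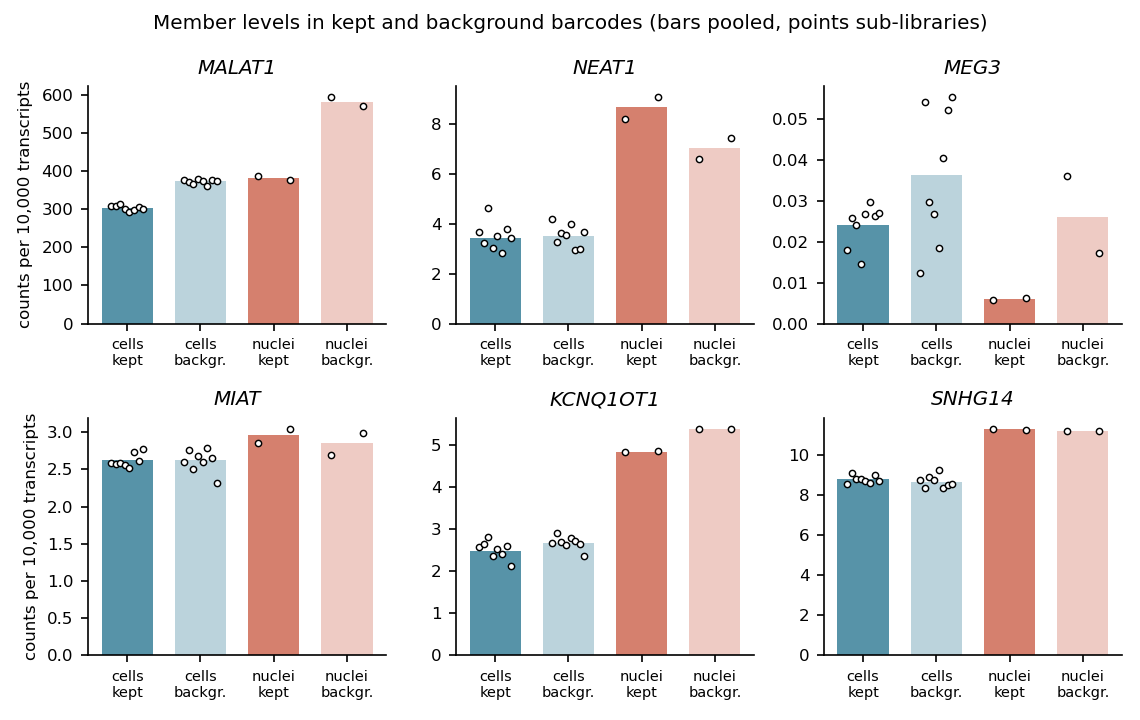
Counts per 10000 transcripts of each member in kept and background barcodes of cells and nuclei; bars are pooled values and open points are sub-libraries (8 of cells, 2 of nuclei). MALAT1 in nuclei is lower in kept (382) than in background barcodes (583), while MIAT and SNHG14 differ little between kept and background barcodes in either library.

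SNHG14 and MIAT stood at nearly the same level in background and kept barcodes. In cells, SNHG14 was 1.01-fold (95% counting interval 1.00 to 1.03) and MIAT 1.00-fold (0.978 to 1.02) of background, and in nuclei they were 1.01-fold (0.985 to 1.03) and 1.04-fold (0.991 to 1.09). MALAT1 was lower in kept barcodes, at 304 against 374 per 10000 in cells (0.813-fold) and 382 against 583 in nuclei (0.655-fold). MEG3 was also lower, at 0.658-fold in cells (0.536 to 0.813) and 0.235-fold in nuclei (0.131 to 0.438), on 125 and 17 background counts. KCNQ1OT1 stood at 0.926-fold in cells and 0.8997-fold in nuclei, and NEAT1 at 0.975-fold and 1.23-fold. These members thus departed from background by unequal amounts. In nuclei the pooled MALAT1 level was 616 at 10 to 50 transcripts, 549 at 51 to 100, 511 above 100 up to 300, and 378 above 10000. None of the 6 members was at least 2-fold higher in kept than in background barcodes, beside 4.42% of all tested genes in cells and 2.27% in nuclei. Single types departed from the background: NEAT1 stood at 0.464 per 10000 in the excitatory neuron-like nuclei described below, against 7.04 in the background of nuclei, and SNHG14 at 21.3 against 11.2.

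NEAT1 was the member most raised in nuclei, at 2.52-fold the level in cells (2.50 to 2.55). KCNQ1OT1 was 1.96-fold higher (1.93 to 1.98), SNHG14 1.28-fold (1.27 to 1.29), MALAT1 1.26-fold (1.256 to 1.260) and MIAT 1.13-fold (1.11 to 1.15). MEG3 was at 0.254-fold (0.182 to 0.348). One of the 6 members passed 2-fold higher, beside 0.502% of the 29474 genes tested (148 genes), and 1 passed 2-fold lower, beside 33.5%. The median of all genes was −0.55 on the log2 scale and that of the members was 0.35. Within the distribution of all genes, NEAT1 stood at percentile 99.9, KCNQ1OT1 at 99.4, SNHG14 at 92.8, MALAT1 at 92.0, MIAT at 86.8 and MEG3 at 9.99.

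**Figure D2:**
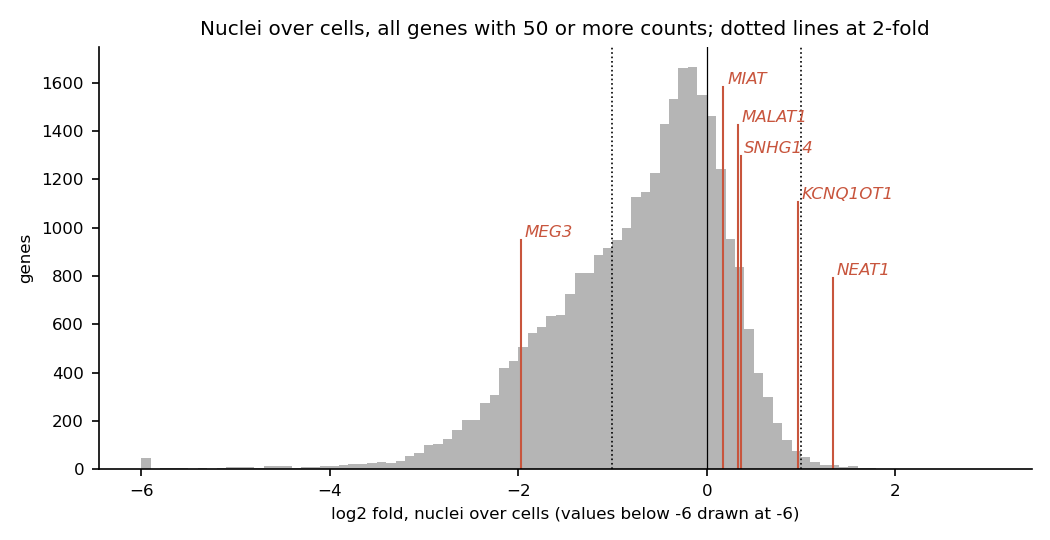
Histogram of log2 fold, nuclei over cells, for the 29474 genes with at least 50 summed counts, with the members as red lines and dotted lines at 2-fold. NEAT1 lies at 1.34, KCNQ1OT1 at 0.97 and MEG3 at −1.97, while the median of all genes lies at −0.55.

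Lists of other genes set the scale of this comparison, beside the 33.5% of all genes that were at least 2-fold lower and the 0.502% that were at least 2-fold higher. All 12 cytoplasmic mRNAs were at least 2-fold lower in nuclei (median 0.224-fold, from FTL, a ferritin chain, at 0.131 to STMN1, a tubulin-binding protein, at 0.489), as were all 13 mitochondrially encoded mRNAs (median 0.0510-fold, from MT-ND4L at 0.0305 to MT-CO1 at 0.0759). Of 15 lncRNAs known as cytoplasmic or as spliced hosts of small nucleolar RNAs, 6 were at least 2-fold lower and none was 2-fold higher, a share near that of all genes (median 0.594-fold, SNHG5 lowest at 0.250 and TMEM161B-DT highest at 1.29). Among 15 other neural lncRNAs, 1 was at least 2-fold higher (DLX6-AS1, 2.48-fold) and 1 lower (PCA3, 0.297-fold), with a median of 1.05-fold. Long, intron-rich neural genes were higher in nuclei at the median (1.54-fold), and 1 of 12, LRP1B, passed 2-fold at 2.20, with AUTS2 lowest at 1.27. The mRNAs of the proteins that assemble with MALAT1 and NEAT1 stayed within 2-fold: 0 of 12 paraspeckle protein genes (median 0.895-fold, RBM14 highest at 1.20 and TARDBP lowest at 0.635) and 0 of 12 nuclear speckle protein genes (median 0.830-fold, ACIN1 highest at 1.09 and RNPS1 lowest at 0.542). Of the 3 genes for proteins that bind MIAT, none passed 2-fold, with QKI at 1.49-fold and SF1 at 0.746-fold.

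Clusters were named from cell type markers, without the members among the clustering genes. In cells 14 of 24 clusters were named: radial glia-like (2027 barcodes), dividing progenitor-like (3869), intermediate progenitor-like (871), excitatory neuron-like (5252), Cajal-Retzius-like (154) and choroid plexus-like (2046), with 5959 barcodes left unnamed. In nuclei 11 of 21 were named: radial glia-like (3527), dividing progenitor-like (2181), excitatory neuron-like (3271), Cajal-Retzius-like (81) and choroid plexus-like (351), with 4817 unnamed. The classes are not made of like clusters in both libraries. The choroid plexus-like nuclei were 1 cluster led by genes of motile cilia (CFAP157, DAW1), whereas the choroid plexus-like cells were 1251 barcodes led by TTR, 453 led by cilia genes and 342 led by PAX3. The PAX3-led cluster met 5 choroid plexus markers and 4 of cortical hem, with none of either among its 10 leading genes, so results of the class are also given by cluster for NEAT1. A cluster led by the hypoxia-related genes HIF1A-AS3 and PDK1 was excitatory neuron-like in cells and unnamed in nuclei. One of the 3 radial glia-like clusters of nuclei was led by the immediate early genes EGR1 and FOS. Another, of 924 nuclei, met 4 radial glia and 4 S-phase markers. In cells a cluster of 643 barcodes met 9 S-phase, 7 radial glia and 4 dividing progenitor markers. It was counted as dividing progenitor-like, a name that also covered S-phase markers.

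NEAT1 differed most between types. Choroid plexus-like barcodes held 15.1 ± 1.97 per 10000 in cells (n = 8) and 61.2 ± 0.233 in nuclei (n = 2), and the next type, Cajal-Retzius-like, held 5.00 ± 2.96 and 2.49 ± 0.639. Radial glia-like barcodes held 1.76 ± 0.534 in cells and 1.55 ± 0.0225 in nuclei, dividing progenitor-like ones 0.970 ± 0.166 and 1.10 ± 0.0550, and excitatory neuron-like ones 0.891 ± 0.190 and 0.464 ± 0.139. In cells the dividing progenitor-like, excitatory neuron-like and intermediate progenitor-like levels did not differ beyond their spread. Against radial glia-like barcodes, NEAT1 was 8.60-fold higher in choroid plexus-like cells (8.24 to 8.97) and 39.5-fold higher in choroid plexus-like nuclei (37.8 to 41.3). It was higher in 11 of 11 wells of cells and 5 of 5 wells of nuclei that held enough of both types, where a well is the first barcoding position. In thinned barcodes NEAT1 was detected in 50.7% of choroid plexus-like cells and 90.0% of choroid plexus-like nuclei, against 7.14% and 3.97% of excitatory neuron-like ones. The median depth before thinning was 1684.5 transcripts in choroid plexus-like and 3327 in excitatory neuron-like cells, and 9738 and 4130 in nuclei.

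Most NEAT1 counts came from few barcodes. Choroid plexus-like nuclei were 2.47% of the kept nuclei and held 36.5% of all NEAT1 counts, and an unnamed cluster of 928 nuclei led by RSPO2 and LMX1A, a WNT agonist and a roof plate transcription factor, held a further 45.9% at 42.8 per 10000. In cells the choroid plexus-like barcodes (10.1% of those kept) held 31.0% of NEAT1 counts, and an unnamed RSPO2-led cluster of 807 barcodes held 33.4% at 18.5 per 10000. Both RSPO2-led clusters met 5 choroid plexus markers and 3 of cortical hem. Of these, only cortical hem markers were among their 10 leading genes, so both clusters were left unnamed. NEAT1 was itself among the 5 leading genes of the TTR-led cluster of cells, at 6.79 per 10000. The cilia-led cluster of cells stood at 20.0 and the PAX3-led cluster at 12.3.

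The higher level of NEAT1 in nuclei was not shared by all of the named types. Nuclei over cells, NEAT1 was 4.05-fold higher in choroid plexus-like barcodes (3.97 to 4.13) and 2.93-fold higher in unnamed ones (2.89 to 2.98), but 0.881-fold in radial glia-like (0.831 to 0.934), 1.14-fold in dividing progenitor-like (1.06 to 1.22), 0.520-fold in excitatory neuron-like (0.481 to 0.563) and 0.499-fold in Cajal-Retzius-like barcodes (0.406 to 0.608). These intervals cover counting error only. The excitatory neuron-like difference was beyond the spread over sub-libraries, but the radial glia-like, dividing progenitor-like and Cajal-Retzius-like differences were within it. In Cajal-Retzius-like barcodes NEAT1 stood at 5.00 ± 2.96 in cells and 2.49 ± 0.639 in nuclei. Over all named barcodes other than choroid plexus-like, 12173 cells and 9060 nuclei, NEAT1 stood at 1.12 per 10000 in cells and 1.02 in nuclei, 0.906-fold. The pooled 2.52-fold difference therefore rested on choroid plexus-like and unnamed barcodes.

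**Figure D3:**
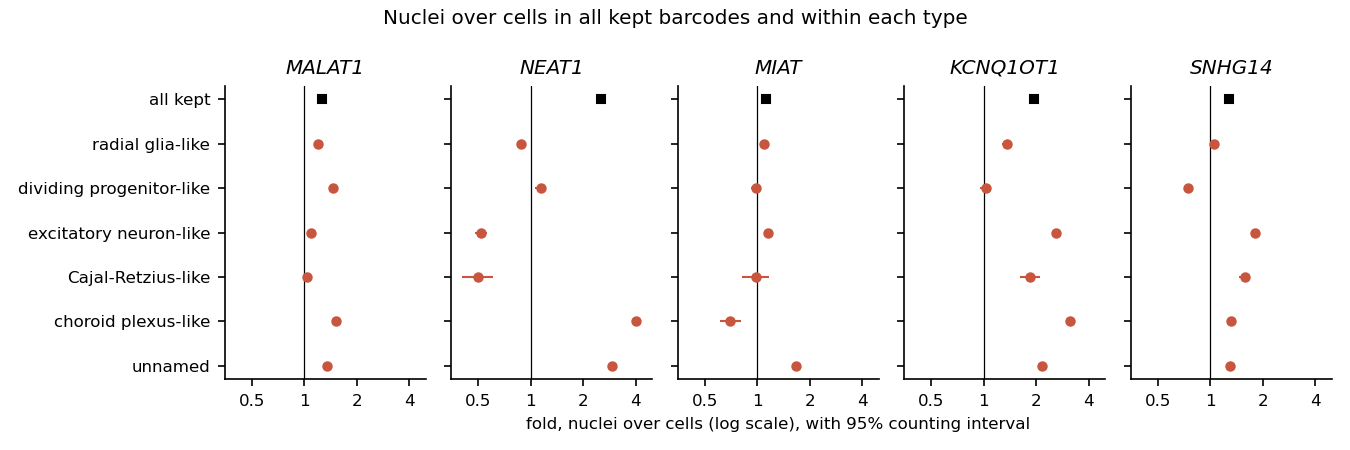
Fold of 5 members, nuclei over cells, on a log scale, in all kept barcodes (black squares) and within each type or the unnamed barcodes (red points), with 95% counting intervals. NEAT1 falls on both sides of 1, from 0.499 in Cajal-Retzius-like to 4.05 in choroid plexus-like barcodes, whereas MALAT1 lies above 1 in each of them. For both members the Cajal-Retzius-like difference was within the spread over sub-libraries.

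With the clusters of each type summed, MALAT1 and KCNQ1OT1 were not below the level of cells in any type named in both libraries. MALAT1 ranged from 1.04-fold (1.02 to 1.06) in Cajal-Retzius-like to 1.51-fold (1.51 to 1.52) in choroid plexus-like barcodes, with 1.46-fold in dividing progenitor-like, 1.20-fold in radial glia-like and 1.10-fold in excitatory neuron-like ones. The Cajal-Retzius-like difference of MALAT1 was within the spread over sub-libraries. The excitatory neuron-like cells hold the HIF1A-AS3- and PDK1-led cluster, with MALAT1 at 426 per 10000. The cluster of nuclei led by these genes, at 592, was unnamed and so left out of the 1.10-fold value. KCNQ1OT1 was 3.12-fold higher in choroid plexus-like (2.99 to 3.26) and 2.59-fold higher in excitatory neuron-like nuclei (2.52 to 2.66), and 1.02-fold in dividing progenitor-like ones (0.953 to 1.10). The dividing progenitor-like values depend on which clusters are summed. The 3 such clusters of cells (2434, 792 and 643 barcodes) held MALAT1 at 374, 264 and 156 per 10000 and KCNQ1OT1 at 2.40, 0.714 and 0.429. The 2 of nuclei (1492 and 689 barcodes) held MALAT1 at 359 and 420 and KCNQ1OT1 at 0.921 and 1.30. KCNQ1OT1 in both was thus below the largest cluster of cells, and MALAT1 lay on either side of it. SNHG14 was higher in excitatory neuron-like nuclei, at 1.80-fold (1.78 to 1.83), and lower in dividing progenitor-like nuclei, at 0.749-fold (0.723 to 0.777). MIAT was 1.16-fold in excitatory neuron-like (1.13 to 1.19) and 0.700-fold in choroid plexus-like barcodes (0.608 to 0.804), with 1.09-fold in radial glia-like, 0.980-fold in dividing progenitor-like, 0.978-fold in Cajal-Retzius-like and 1.66-fold in unnamed ones (1.62 to 1.71). Over the named barcodes other than choroid plexus-like MIAT was 0.888-fold, against 1.13-fold in all kept barcodes. This set is unlike in the libraries. In cells it holds the intermediate progenitor-like class (871 barcodes, MIAT at 6.59 per 10000). In nuclei an EOMES-led cluster (546 barcodes, 8.54) was unnamed and so left out. The size of this turn in MIAT therefore depends on which clusters were named. Over the same named barcodes KCNQ1OT1 was 1.68-fold, SNHG14 1.26-fold and MALAT1 1.17-fold. Whether these differences between types exceed the spread between organoids could not be tested with 1 library of each.

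**Figure D4:**
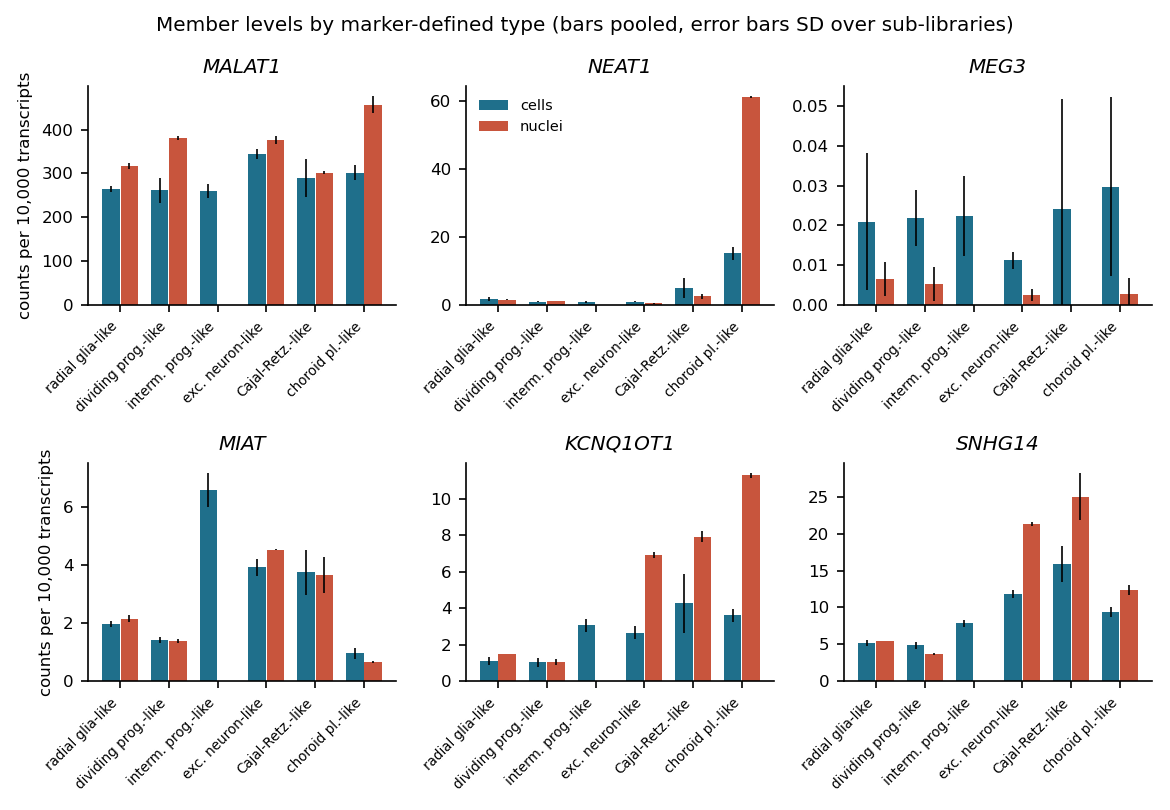
Counts per 10000 transcripts of each member by marker-defined type in cells and nuclei; bars are pooled values, error bars the SD over sub-libraries (n = 8 and 2), and no intermediate progenitor-like cluster was named in nuclei. NEAT1 peaks in choroid plexus-like barcodes (15.1 and 61.2), MIAT in intermediate progenitor-like cells (6.59), and SNHG14 in Cajal-Retzius-like and excitatory neuron-like barcodes.

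SNHG14, MIAT and KCNQ1OT1 were higher in excitatory neuron-like than in radial glia-like barcodes in both libraries. SNHG14 rose from 5.15 ± 0.410 to 11.8 ± 0.592 per 10000 in cells, 2.30-fold (2.24 to 2.35), and from 5.44 ± 0.0163 to 21.3 ± 0.283 in nuclei, 3.92-fold (3.82 to 4.02). KCNQ1OT1 rose from 1.10 ± 0.238 to 2.67 ± 0.365 in cells, 2.42-fold (2.30 to 2.55), and from 1.4997 ± 0.00664 to 6.92 ± 0.151 in nuclei, 4.61-fold (4.40 to 4.84). MIAT rose from 1.97 ± 0.0980 to 3.92 ± 0.289 in cells, 1.99-fold (1.91 to 2.07), and from 2.15 ± 0.126 to 4.53 ± 0.0216 in nuclei, 2.11-fold (2.02 to 2.20). At 1.5-fold, these were 3 of 6 members in cells and 3 of the 5 with at least 50 summed counts in nuclei, beside 12.8% and 17.2% of all genes. Deep barcodes weigh more in these sums. In cells 1 excitatory neuron-like cluster of 300 barcodes (median 24040 transcripts) held 6535 of the 17085 MIAT counts of its class. It met 4 excitatory neuron and 3 intermediate progenitor markers. SNHG14 and MIAT were higher in the neurons in 23 of 23 wells of cells and 12 of 12 wells of nuclei, and KCNQ1OT1 in 22 of 23 and 12 of 12.

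MALAT1 shared this direction but did not reach 1.5-fold. It was 1.30-fold higher in excitatory neuron-like cells (1.29 to 1.30) and 1.19-fold higher in such nuclei. Within wells MALAT1 was higher in the neurons in 22 of 23 wells of cells and 12 of 12 wells of nuclei. The class of cells holds the HIF1A-AS3- and PDK1-led cluster, at 426 per 10000, whereas the cluster of nuclei led by these genes was unnamed. NEAT1 was 0.506-fold in cells (0.481 to 0.532) and 0.299-fold in nuclei (0.275 to 0.325). It was higher in the neurons in 1 of 23 wells of cells and 0 of 12 wells of nuclei. With MEG3 in cells, at 0.536-fold on 49 and 30 counts, 2 of 6 members were at least 1.5-fold lower in cells, beside 15.9% of genes, and 1 of 5 in nuclei, beside 29.9%.

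Among the pooled types of cells MIAT peaked in the intermediate progenitor-like class. This class was 1 cluster that met 3 intermediate progenitor and 3 excitatory neuron markers. It was named from its leading genes, which included NHLH1 and EOMES, so it may also hold young neurons. The MIAT level there was 6.59 ± 0.586 per 10000 (n = 8), 3.34-fold that of radial glia-like cells (3.19 to 3.51) and beyond the spread of the excitatory neuron-like level. It was higher than in radial glia-like cells in 12 of 12 wells. The lowest level was in choroid plexus-like barcodes, at 0.961 ± 0.198 in cells and 0.673 ± 0.0384 in nuclei. In nuclei no cluster was named intermediate progenitor-like. The cluster with the highest MIAT level, 8.54 per 10000 in 546 barcodes, was led by EOMES, the T-box factor of those progenitors. An excitatory neuron-like cluster of 746 nuclei came next, at 7.76. In cells an unnamed EOMES-led cluster of 131 barcodes held MIAT at 4.804 per 10000. It met 10 dividing progenitor and 4 intermediate progenitor markers. Its level was above the pooled excitatory neuron-like level of cells, 3.92 ± 0.289. It lay between those of the highest excitatory neuron-like clusters of cells, at 4.87 and 4.78. A MIAT level above each single excitatory neuron-like cluster was thus not shared by every EOMES-led cluster. MIAT was detected in 43.1% of thinned intermediate progenitor-like cells and 31.2% of excitatory neuron-like cells.

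Among the pooled types SNHG14 was highest in Cajal-Retzius-like barcodes, the early RELN-expressing neurons, at 15.9 ± 2.41 in cells and 25.02 ± 3.204 in nuclei, on 154 and 81 barcodes. In cells this exceeded the excitatory neuron-like level by more than the spread, and in thinned barcodes SNHG14 was detected in 72.1% of Cajal-Retzius-like cells against 36.4% of radial glia-like cells. Single clusters of the excitatory neuron-like class were higher, at 17.8 in 1 of cells (224 barcodes) and 28.5 and 26.02 in 2 of nuclei (674 and 1179 barcodes), and the other 2 of nuclei stood at 14.6 and 8.05. The lowest pooled levels were in dividing progenitor-like barcodes, at 4.91 ± 0.481 in cells and 3.68 ± 0.149 in nuclei. In cells the radial glia-like and dividing progenitor-like levels did not differ beyond their spread. With each barcode thinned to 1000 transcripts their order was the other way. The mean SNHG14 count was then 0.609 in dividing progenitor-like and 0.502 in radial glia-like cells.

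KCNQ1OT1 was above the radial glia-like level in neurons, in intermediate progenitor-like cells and in the choroid plexus-like class. In cells it stood at 4.28 ± 1.62 in Cajal-Retzius-like, 3.62 ± 0.362 in choroid plexus-like, 3.06 ± 0.338 in intermediate progenitor-like and 2.67 ± 0.365 in excitatory neuron-like barcodes, the last near the background of cells (2.68). In nuclei the choroid plexus-like level, 11.3 ± 0.128, was above the Cajal-Retzius-like (7.92 ± 0.297) and excitatory neuron-like levels (6.92 ± 0.151). Choroid plexus-like over radial glia-like, KCNQ1OT1 was 3.28-fold higher in cells (3.09 to 3.48) and 7.53-fold higher in nuclei (7.14 to 7.94). With NEAT1 in cells, and with NEAT1 and SNHG14 (2.27-fold) in nuclei, 2 of 6 and 3 of 5 members passed 2-fold in that comparison, beside 13.6% and 13.8% of genes.

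MALAT1 varied least between types, from 259 ± 15.7 in intermediate progenitor-like to 344 ± 11.5 in excitatory neuron-like cells, and from 302 ± 3.33 in Cajal-Retzius-like to 457 ± 18.9 in choroid plexus-like nuclei. In cells the 3 progenitor levels (radial glia-like 265 ± 6.75, dividing progenitor-like 261 ± 29.1) did not differ beyond their spread. These are sums, in which deep barcodes weigh more, over dividing progenitor-like clusters that ranged from 156 to 374. Within wells MALAT1 was higher in dividing progenitor-like than in radial glia-like cells in 14 of 15. With each barcode thinned to 1000 transcripts, the mean MALAT1 count was 32.7 in dividing progenitor-like and 26.8 in radial glia-like cells. The HIF1A-AS3- and PDK1-led cluster held 426 per 10000 in cells (1220 barcodes) and 592 in nuclei (751 barcodes), the highest MALAT1 level among clusters of nuclei. In cells 1 cluster was higher, at 477, and 88.5% of its 122 barcodes came from 1 well. Over clusters of at least 100 barcodes the highest level was 3.06 times the lowest for MALAT1 in cells and 2.64 times in nuclei, against 72.2 and 197 times for NEAT1.

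MEG3 stayed near 0 in every type, from 0.0112 to 0.0298 per 10000 in cells and from 0 to 0.00656 in nuclei, where the 0 counts of the Cajal-Retzius-like type allow up to 0.0821. In cells 107 of its 377 counts (28.4%) came from 1 unnamed cluster of 1037 barcodes led by DOCK2, at 0.159 per 10000. Its 5 imprinted neighbours also had few counts: MEG8 stood at 0.0313 per 10000 in cells and 0.0144 in nuclei, and MEG9 at 0.00394 and 0.000831. All 5 were at least 2-fold lower in nuclei (median 0.269-fold), as were 33.5% of all genes.

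The transcripts that overlap the other members were measured beside them. TALAM1, on the strand opposite to MALAT1, stood at 12.2 per 10000 in cells and 5.81 in nuclei, 0.475-fold, so that in kept barcodes MALAT1 had 24.8 times the counts of TALAM1 in cells and 65.7 times in nuclei. In background barcodes the order of the libraries was the opposite, with TALAM1 at 6.13 in cells and 12.5 in nuclei. The ratio in kept barcodes was nearly constant across types, from 23.2 to 27.6 in cells and from 60.5 to 67.5 in nuclei. How the counting treated strand was not given in the sources used here, so reads of MALAT1 and TALAM1 may not be told apart. KCNQ1, the host gene of KCNQ1OT1, had 0.239 per 10000 in cells and 0.174 in nuclei. UBE3A, antisense to SNHG14, had 2.52 and 2.43, and SNRPN, upstream of SNHG14, 2.504 and 2.47. MIATNB overlaps MIAT on the same strand over 3.73 kb, 12.4% of the MIAT gene, and stood at 0.333 in cells and 0.459 in nuclei. Reads of that stretch may not be told apart. Of TALAM1, KCNQ1, UBE3A and SNRPN, 1 of 4 was at least 2-fold lower in nuclei and 0 were higher, with a median of 0.847-fold. Of all genes 33.5% were at least 2-fold lower and 0.502% higher. Of the imprinted neighbours of SNHG14, 8 of the 10 found were tested, at a median of 1.26-fold. Of these, 1 was at least 2-fold higher (PWRN1, 2.21-fold), beside 0.502% of all genes, and 1 lower (NDN, 0.195-fold), beside 33.5%. Of the imprinted neighbours of KCNQ1OT1, 5 of 6 were tested, with SLC22A18 highest at 0.990 and a median of 0.626-fold. Of these, 1 was at least 2-fold lower (TSSC4, 0.276-fold), beside 33.5% of all genes.

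The gene whose level most closely followed a member across clusters was another one in cells than in nuclei for each of the 5 members compared, without MEG3. Pearson's r was taken over the 23 clusters of cells and 19 of nuclei with at least 100 barcodes, which share their library and differ in depth, and is a description. In nuclei TALAM1 followed MALAT1 most closely (r = 0.966), and in cells DSTN did (r = 0.853). TALAM1 lies antisense over most of MALAT1, and reads of the pair may not be told apart. NEAT1 was followed by PDZRN3 in cells (r = 0.943) and PRTG in nuclei (r = 0.955). For MIAT the first 3 genes were SOX4 (r = 0.941), MYT1 (r = 0.928) and ELAVL4 (r = 0.921) in cells. In nuclei they were CRACD (r = 0.913), PAK3 (r = 0.909) and PCDHGA2 (r = 0.884). SNHG14 was followed by MYO1D in cells (r = 0.907) and NBEA in nuclei (r = 0.948). For KCNQ1OT1, UBE2E2 led in cells (r = 0.862) and TACC2 in nuclei (r = 0.911), and ASXL3 was among the first 3 in both (r = 0.856 and 0.901).

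**Figure D5:**
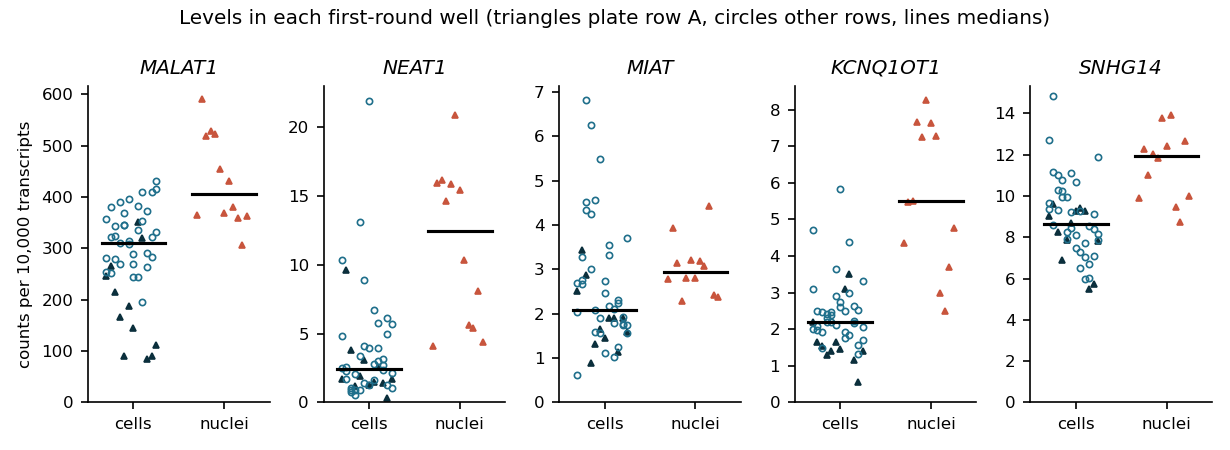
Counts per 10000 transcripts of 5 members in each first-round well (48 wells of cells, 12 of nuclei, all of the latter in plate row A), with lines at the medians. MALAT1 in cells runs from 83.8 to 431, with the lowest well in plate row A (triangles), and 1 well of cells reaches 21.9 for NEAT1.

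What each first-round well held was not known, so levels by well are given as ranges. MALAT1 ran from 83.8 to 431 in cells (median 310) and from 306 to 591 in nuclei (median 406). Plate row A of the cells had a lower median, 176, than rows B (298), C (319) and D (371). The background barcodes of row A were also lower, with a median of 250 against 352 to 423 in the other rows. NEAT1 ran from 0.332 to 21.9 in cells (median 2.44) and from 4.11 to 20.9 in nuclei (median 12.5), and the well at 21.9 held 51.9% choroid plexus-like barcodes. MIAT ran from 0.618 to 6.83 in cells and from 2.28 to 4.43 in nuclei, KCNQ1OT1 from 0.567 to 5.83 and from 2.49 to 8.26, and SNHG14 from 5.50 to 14.9 and from 8.73 to 13.9. The ranges of cells and nuclei overlapped for every member.

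From 1% upwards, NEAT1 was higher and MIAT lower the higher the mitochondrial share of cells. NEAT1 stood at 2.64 per 10000 in cells with under 0.5% and 1.89 in those with 0.5 to 1% mitochondrial counts, at 1.58 with 1 to 2% mitochondrial counts, 2.94 at 2 to 5%, 7.76 at 5 to 10% and 18.2 at 10 to 20%, where choroid plexus-like barcodes were 2.76%, 9.36%, 33.3% and 51.6% of the barcodes. MIAT fell from 3.10 to 2.37, 1.30 and 0.421 over the same bins. Within choroid plexus-like cells NEAT1 was 20.3, 12.8, 13.2 and 17.6 in these bins, and 44.8 and 30.6 in the bins below 1%, which held 18 and 25 such barcodes. In nuclei NEAT1 was 8.60, 6.99, 6.10, 17.1, 36.2 and 18.6 over the 6 bins from the lowest share up. MALAT1 in cells stayed between 276 and 319 from 1% upwards, and the part of RNA quality in these levels was not tested.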

How the data were processed

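Organoid cells and nuclei were profiled by split-pool barcoding (Evercode WT for cells, WT Mini for nuclei). According to the study's methods, the authors demultiplexed reads with 1 mismatch allowed and processed them with the Parse pipeline against GRCh38. The deposited unfiltered matrices hold raw counts of transcripts per gene and barcode, from 10 transcripts upwards, 254967545 transcripts in cells and 82339738 in nuclei. How introns and strand were counted was not given in the sources used here. Barcodes were kept with over 500 genes, over 1000 transcripts and at most 20% MT- counts. Counts were summed and divided by total transcripts, and the 95% intervals are exact Poisson, exact conditional (ratios) and exact binomial (shares). Genes with at least 50 summed counts were compared. Clustering (Scanpy 1.11.5) used 2000 variable genes without the members, lists and MT- genes, 30 components, 15 neighbours and Leiden resolution 1. A cluster was named with at least 3 markers raised 1.5-fold in at least 25% of barcodes. The type with most markers gave the name, and ties went to the type with more among the 10 leading genes. No name was given where those genes held more markers of another type, or to shallow clusters without an own marker among them. Clusters under 50 barcodes, or of cells with over 75% from 1 sub-library, also had none. S-phase markers gave the name dividing progenitor-like. Scrublet called 0 doublets in both libraries and so had not worked. Doublets were kept, with the 1009 cells and 427 nuclei of highest score left out as an alternative. Thinning drew 1000 transcripts per barcode without replacement. Of kept barcodes, 533 well combinations occurred in both libraries, and 6574 cells and 1272 nuclei shared one across sub-libraries. Sequences were read from hg38 with GENCODE v44. Scripts were tested on simulated counts. Named genes were the members, the highest and lowest of each list, the 3 most alike genes of each member (the first is named, all 3 for MIAT, and others where they recur) and the leading genes of clusters. A few others were chosen after their values were seen. The members and lists were chosen with earlier results of these data known.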

Additional observations from a re-analysis of the deposited data

Results flagged for a closer look

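For 3 contrasts the pooled fold of a member lay on opposite sides of 1 in cells and nuclei. Both counting intervals were away from 1, and the difference between the libraries was not tested. In cells none of the 3 differences exceeded the spread over sub-libraries, so these sums do not set a direction there. NEAT1 stood at 3.44 ± 0.555 in kept and 3.53 ± 0.447 in background barcodes of cells. MALAT1 stood at 261 ± 29.1 in dividing progenitor-like, 289 ± 42.9 in Cajal-Retzius-like and 265 ± 6.75 in radial glia-like cells. NEAT1 in kept over background barcodes was 0.975-fold in cells (0.956 to 0.994) and 1.23-fold in nuclei (1.20 to 1.27), and it was above background in 24 of 48 wells of cells and 12 of 12 wells of nuclei. MALAT1 in dividing progenitor-like over radial glia-like barcodes was 0.9845-fold in cells (0.980 to 0.989) and 1.20-fold in nuclei (1.197 to 1.207), yet within wells it was higher in 14 of 15 wells of cells and 12 of 12 wells of nuclei. MALAT1 in Cajal-Retzius-like over radial glia-like barcodes was 1.09-fold in cells (1.08 to 1.10) and 0.952-fold in nuclei (0.936 to 0.968), on 154 and 81 Cajal-Retzius-like barcodes.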

How the results depend on the processing

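Of the counts of members and genes recomputed under alternatives, 109 stayed within 1.5 times the reported value and 12 did not. Of the values of single members, 464 moved by no more than the spread, or by no more than 1 percentage point for shares detected, and 127 by more. A further 4 turned direction from a reported value of at least 1.5-fold. The spread used here was that of the levels over whole libraries, also for contrasts of types, and not the SD of the types compared. The count of members at least 2-fold higher in nuclei, reported as 1, was 2 with an unweighted mean over barcodes, with every barcode thinned to 1000 transcripts, with the median over wells and within choroid plexus-like barcodes, KCNQ1OT1 joining NEAT1. It was 0 within radial glia-like, dividing progenitor-like and Cajal-Retzius-like barcodes. Within excitatory neuron-like barcodes it was 1, KCNQ1OT1. NEAT1, nuclei over cells, turned to −0.18 (log2) in radial glia-like, −0.94 in excitatory neuron-like and −1.003 in Cajal-Retzius-like barcodes, and MEG3, kept over background in cells, to 0.21 against a background of over 100 and up to 300 transcripts. Of these NEAT1 values, only the excitatory neuron-like difference was beyond the spread over sub-libraries. Genes at least 2-fold higher in nuclei were 275 with a minimum of 10 summed counts and 98 with a minimum of 200. Members detected in at least 50% of nuclei, reported as 2, were 1 without the highest doublet scores, from 1 to 2 leaving out each sub-library in turn (1 without sub-library 1 of nuclei) and 4 without thinning. SNHG14 lay at 50.4% thinned, and without thinning MIAT and KCNQ1OT1 passed 50% too. Without plate row A of the cells MALAT1 was 0.24 (log2) higher in nuclei, against 0.33. The direction of each member between excitatory neuron-like and radial glia-like barcodes did not change in any of the 114 recomputed values of cells and 72 of nuclei. It changed in 9 of 96 values of kept over background in cells, 4 of 54 in nuclei and 7 of 151 of nuclei over cells. Besides the values above, MIAT reached −0.51 in choroid plexus-like and SNHG14 −0.42 in dividing progenitor-like barcodes (nuclei over cells), and KCNQ1OT1, kept over background in nuclei, reached 0.21. The other changes, of MIAT, NEAT1 and SNHG14, were in values near 0. The types and the thinned shares were not recomputed with the limit of 700 transcripts, nor the types without a mitochondrial limit, because barcodes outside the main limits have no type. The alternatives within types, by well and without plate row A were chosen after seeing the data. No paired analysis was possible because each group is 1 library. Few counts limit MEG3, with 44 in nuclei, and few barcodes limit the Cajal-Retzius-like values (154 in cells and 81 in nuclei).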

Other observations

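Levels are given here for some clusters not described above. An unnamed cluster of 218 nuclei led by the heat shock genes HSPB1, HSPA1B and DNAJB1 held MALAT1 at 457 and NEAT1 at 7.69 per 10000, and 30.7% of it came from 1 well. Clusters led by PAX3, a neural crest and dorsal neural tube factor, held NEAT1 at 17.9 per 10000 in nuclei (171 barcodes, unnamed). The PAX3-led cluster of 342 cells, at 12.3, was counted as choroid plexus-like from its markers, although its leading gene is not one of them. KCNQ1OT1 in nuclei was highest in the RSPO2-led cluster, at 11.8 per 10000, and stood at 10.99 in 39 nuclei led by LINC01210 and GATA3. MIAT in nuclei stood at 5.35 in 733 barcodes led by NXPH1 and GFRA1, where SNHG14 stood at 21.2.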
